A study of Mus musculus with 2 samples.

Results

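CD150-high CD48-low cells are the stem cell fraction of the SLAM scheme, which sorts the hematopoietic stem and progenitor cells of the mouse by 2 surface proteins of the SLAM receptor family. The cells came from the bone marrow of C57BL/6JRj mice, sorted as LSK cells, which lack lineage markers and carry Sca-1 and c-Kit and among which stem cells and early progenitors are found. LSK cells were pooled from old mice of 22 to 28 months in 1 library and from young mice of 3 to 5 months in the other, and no genetic change or treatment is given for either group. Both were profiled by CITE-Seq, which reads, by unique molecular identifiers (UMIs), both the mRNA of each single cell and DNA barcodes carried by antibodies on its surface, and these tags were those of CD150, CD48 and CLCA3A1, the last read through an antibody against the dye PE. A cell is tied to a library by the suffix 1 or 2 of its barcode, and neither the sample labels nor the methods pair a suffix with an age. The ages were therefore not compared, the matrix was treated as 1 sample, no p-value is given, and values per suffix serve as a technical check only.

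Cells were chosen by their tags alone. Within each suffix, a cell was taken when its CD150 tag count was at or above the 75th percentile and its CD48 tag count at or under the 25th percentile of the cells that had under 10% mitochondrial UMIs, over 1500 detected genes and tag values. This gave 555 of 3986 cells (13.9%), 172 of 1497 in suffix 1 (11.5%) and 383 of 2489 in suffix 2 (15.4%), which left 3431 cells for comparison. The bounds lay far apart in the libraries, at 40 or more CD150 tags and at most 224 CD48 tags in suffix 1, and at 407 or more CD150 tags and at most 42 CD48 tags in suffix 2. The median CD150 count in the gate was 187 tags in suffix 1 and 775 in suffix 2, and the median CD48 count was 110 and 20 tags, so the gate of suffix 1 holds cells with less CD150 and more CD48. These tag values chose the cells and are given as a description. No barcode was shared between the suffixes.

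**Figure D1:**
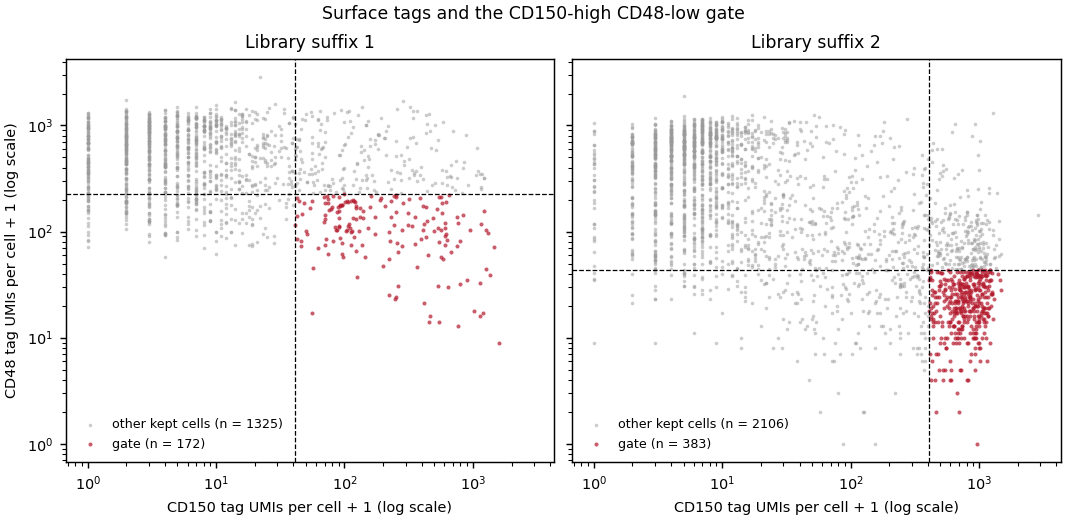
Tag UMIs of CD150 (x axis) and CD48 (y axis) per cell with 1 added, on log axes, for the kept cells of each library suffix; dashed lines are the bounds of the gate and red points the gated cells. The gate holds 172 cells of suffix 1, spread over a wide range of CD150, and 383 cells of suffix 2, in a dense group above 407 CD150 tags.

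Hematopoietic stem cells renew themselves and give rise to all blood lineages, and in the adult marrow most of them rest outside the cell cycle. CD150, the product of Slamf1, is kept on long-term repopulating cells, whereas CD48, CD34 and Flt3 appear on the multipotent progenitors that divide and begin to express lymphoid or myeloid genes. EPCR, the product of Procr, and the transcription factors Hlf and Mecom are widely used to mark stem cells.

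The depth of the gated cells was lower than that of the others. The median was 13334 UMIs and 3793 genes per gated cell, against 15541 UMIs and 4187 genes in the other kept cells, and 22777 UMIs in the CD150-low CD48-high cells at the opposite corner of the plot. Mitochondrial transcripts made up a median of 6.67% of the UMIs of a gated cell and 5.98% in the others. Levels below are summed UMIs scaled to counts per 1000000 (CPM), from 7519136 UMIs in the gate and 62988659 in the other cells, with 95% intervals that cover counting error only and take no account of the mice. Shares of cells with a UMI were taken after each cell was thinned to 8000 UMIs, which left 534 gated cells, 3333 others and 398 CD150-low CD48-high cells, the last shown as the share in cells that should lack stem cell genes.

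The transcripts of the gating proteins followed their tags. Slamf1 stood at 50.0 CPM in the gate and 6.11 CPM in the other cells, 8.18-fold higher (95% interval 7.08 to 9.46), with 16.9 against 1.93 CPM in suffix 1 and 64.2 against 8.83 CPM in suffix 2. Slamf1 UMIs were seen in 31.3% of thinned gated cells, 4.32% of the others and 0 of 398 CD150-low CD48-high cells (exact upper limit 0.923%), so a gated cell often had the protein tag and no captured transcript. Cd48 stood at 1.33 CPM in the gate and 98.0 CPM in the others, 73.7-fold lower, and 10 UMIs of it were left in the whole gate. The ratio was as low in both libraries, at 0.0112 in suffix 1 and 0.0138 in suffix 2.

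Cd48 and Slamf1 are neighbours in the cluster of SLAM family genes on mouse chromosome 1. In the RefSeq annotation of build GRCm38.p6, the build of the authors' alignment, Cd48 spans chr1:171681245-171705258 and Slamf1 spans chr1:171767131-171801184, both on the plus strand, 61.9 kb apart with 3 other annotated genes between them. The 250 bases that end at the transcript start of the RefSeq promoter table, which for Cd48 lies inside the gene span, are shown for both, Cd48 from chr1:171681742-171681991 and Slamf1 from chr1:171766882-171767131, because these neighbours differed in opposite directions. Capitals mark AGATAA or TGATAA, the letters that GATA factors bind, searched on both strands. CGGAAG, a core of sites for ETS factors, was searched too and was in neither window. The GATA letters were in the same window of 18.8% of 27025 genes and the ETS letters in 15.3%. Slamf1 held 1 match to the GATA letters and Cd48 held none, and a match is a description and not a bound site.
Cd48: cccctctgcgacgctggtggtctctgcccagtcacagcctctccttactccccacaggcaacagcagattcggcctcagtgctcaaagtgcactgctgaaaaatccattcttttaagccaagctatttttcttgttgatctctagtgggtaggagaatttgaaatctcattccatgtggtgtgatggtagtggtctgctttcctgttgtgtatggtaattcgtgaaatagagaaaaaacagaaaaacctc
Slamf1: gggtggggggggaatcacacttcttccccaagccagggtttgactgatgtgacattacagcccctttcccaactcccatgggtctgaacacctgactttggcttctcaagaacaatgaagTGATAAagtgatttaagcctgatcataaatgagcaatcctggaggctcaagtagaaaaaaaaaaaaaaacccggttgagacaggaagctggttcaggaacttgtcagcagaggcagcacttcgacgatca

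Of the other markers of the label, Procr and Mecom were higher in the gate and Hlf separated it little. Procr stood at 206 CPM in the gate and 69.1 CPM in the others, 2.99-fold higher (2.82 to 3.16), with ratios of 2.36 in suffix 1 and 2.98 in suffix 2. Mecom stood at 152 against 58.1 CPM, 2.62-fold higher (2.45 to 2.80), with ratios of 2.22 and 2.74. Both were in most gated cells, as 74.2% had a Procr UMI and 68.4% a Mecom UMI, against 10.1% and 11.8% of the CD150-low CD48-high cells. Hlf stood at 355 CPM in the gate and 288 CPM in the others, a ratio of 1.23 (1.18 to 1.28), and of 1.07 in suffix 1 and 1.52 in suffix 2. Hlf UMIs were found in 88.4% of gated cells, in 75.7% of the others and in 49.5% of the CD150-low CD48-high cells. All 4 markers together were seen in 15.5% of thinned gated cells and in 1.77% of the others, and 1 of 534 gated cells had none. They were seen in 0 of 398 CD150-low CD48-high cells, which follows from the lack of Slamf1 UMIs in those cells. Slamf1, Procr and Mecom thus passed 2-fold in both libraries, and Hlf passed it in neither. Against the 98 CD150-low CD48-low cells the differences were smaller, at 1.23 (0.945 to 1.60) in suffix 1 and 1.60 (1.21 to 2.15) in suffix 2 for Procr, and at 1.49 (1.14 to 1.98) and 1.28 (0.939 to 1.78) for Mecom. The summed ratio of the 4 markers against those cells was 0.764 in suffix 1 and 1.17 in suffix 2, and of the 4 only Slamf1, with 376 UMIs in the gate and 1 in those cells, set the gate apart from them by over 2-fold.

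**Figure D2:**
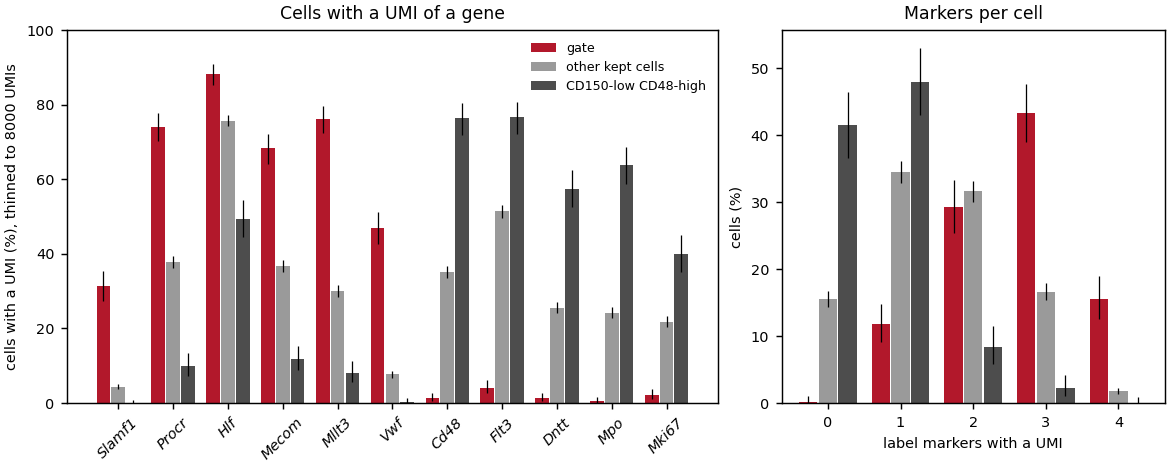
Left, share of cells (y axis, %) with a UMI of each gene after thinning to 8000 UMIs, and right, share of cells by how many of Slamf1, Procr, Hlf and Mecom had a UMI; bars are the gate, the other kept cells and the CD150-low CD48-high cells, with exact 95% intervals. Slamf1, Procr and Mecom set the gate apart more than Hlf, which was in 75.7% of the other cells.

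Across the 12806 genes with a UMI in at least 1% of the kept cells, 311 (2.43%) were past 2-fold higher in the gate and 453 (3.54%) past 2-fold lower, on the scale of CPM with 5 added, on which ratios of scarce genes are smaller than the plain ones. These counts depend on the value added, and with 1 CPM in its place 783 genes were higher and 758 lower. In both libraries separately as well, 135 (1.05%) were past 2-fold higher and 241 (1.88%) lower. The median log2 ratio of all these genes was -0.02. Cxcl9 and Pf4 were past 2-fold in opposite directions in the libraries. For Cxcl9 this rested on few cells, as 9 gated cells, 1 of them in suffix 1, held its 65 UMIs and 5 cells held 93.8% of them. For Pf4, a platelet chemokine, the ratio was 2.67 in suffix 1 and 0.348 in suffix 2.

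**Figure D3:**
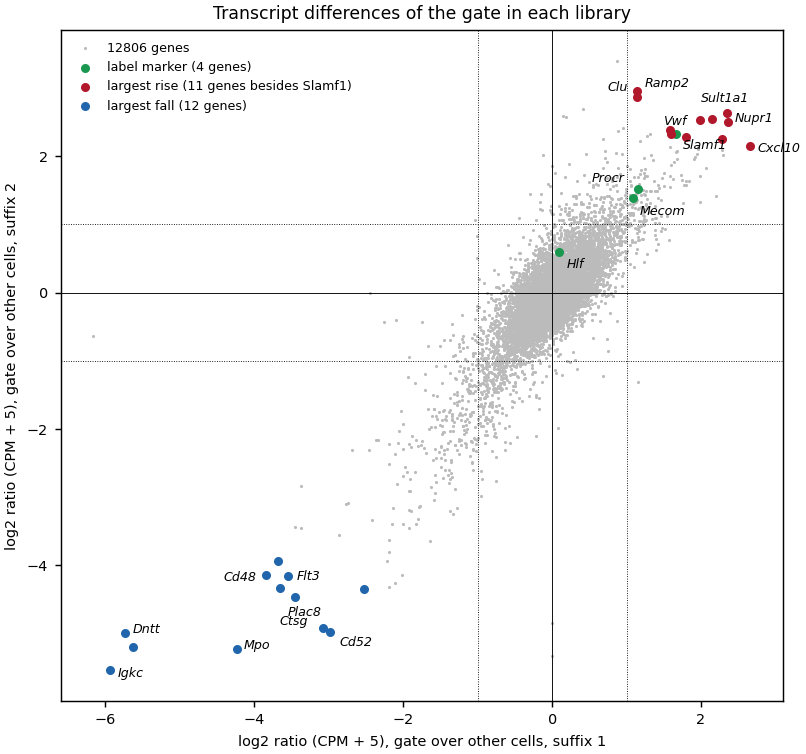
Log2 ratio of CPM with 5 added, gate over other cells, in suffix 1 (x axis) and suffix 2 (y axis), for 12806 genes; colours mark the label markers and the genes with the largest rise and fall. The coloured genes lie on the same side of 0 in both libraries, with Hlf near 0 in suffix 1 at a plain ratio of 1.07.

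The genes furthest above the other cells, among those past 2-fold in both libraries, included receptors, enzymes and vascular or platelet genes. Ramp2, which escorts the calcitonin receptor-like receptor for adrenomedullin, stood at 113 CPM in the gate and 10.2 CPM in the others, 11.0-fold higher (9.94 to 12.2). Clu, the chaperone clusterin, stood at 112 against 11.5 CPM. Vwf, the platelet adhesion factor that marks a platelet-biased share of stem cells, stood at 101 against 12.6 CPM, 7.99-fold higher (7.22 to 8.83), with nearly the same ratio in suffix 1 (8.05) and suffix 2 (7.11). Its UMIs were in 47.0% of gated cells and 0.251% of CD150-low CD48-high cells. Cldn5, a claudin of tight junctions, had the highest log2 ratio over both libraries together, at 3.32, but at 0.87 in suffix 1 it was under 2-fold there.

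Sult1a1, a sulfotransferase, had the highest level of these genes, at 660 CPM in the gate and 90.9 CPM in the others. Nupr1, a stress-induced chromatin protein, stood at 323 against 46.6 CPM, Gda, guanine deaminase, at 152 against 24.9 CPM, and Trim47, an E3 ubiquitin ligase, at 337 against 62.9 CPM. Cavin2, a coat protein of caveolae, was 7.60-fold higher, Tm4sf1, a tetraspanin-like protein of endothelium, 9.47-fold higher, and the unnamed transcript Gm10419 6.93-fold higher. The levels of several differed widely between the libraries. Sult1a1 stood at 79.9 CPM in the gate of suffix 1 and 909 CPM in that of suffix 2, Nupr1 at 35.5 and 446 CPM, and Clu at 14.2 and 153 CPM. The ratio of gate to others within a library was nonetheless past 3-fold in both for each of these 3 genes. What sets the libraries apart, age included, cannot be told apart here.

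Cxcl10, an interferon-induced chemokine, entered this group through a handful of cells. It stood at 71.0 CPM in the gate and 10.1 CPM in the others, but 17 of 555 gated cells held all of its 534 UMIs and 1 cell held 62.9% of them. After thinning, 2.06% of gated cells had a Cxcl10 UMI, against 1.68% of the others, and those intervals overlap. With over 2500 genes and under 5% mitochondrial UMIs required of a cell, the ratio of Cxcl10 was 0.840. For comparison, the top cell held 1.32% of the Vwf UMIs of the gate and 0.967% of those of Sult1a1.

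The genes furthest under the other cells included genes of lymphoid and myeloid priming. Dntt, the terminal transferase of early lymphoid cells, stood at 1.46 CPM in the gate and 254 CPM in the others, 173-fold lower. Mpo, the myeloperoxidase of neutrophil granules, stood at 1.46 against 191 CPM, 131-fold lower, and Ctsg, the granule protease cathepsin G, at 1.06 against 127 CPM. Against the CD150-low CD48-low cells the ratio of Mpo was 0.0722 (0.00769 to 0.339) in suffix 1 and 0.283 (0.0586 to 2.69) in suffix 2. That of Dntt was 0.0150 (0.00303 to 0.0457) and 0.252 (0.0502 to 2.43), so in suffix 2 both intervals included 1. Flt3, the receptor that defines lymphoid-primed progenitors, stood at 5.45 against 156 CPM, 28.7-fold lower, with a ratio of 0.0634 in suffix 1 and 0.0172 in suffix 2. Plac8 was 18.7-fold lower, Cd52 25.6-fold lower, and Tespa1, an adaptor of lymphocyte signalling, 77.2-fold lower. Nkg7, a granule membrane protein of cytotoxic cells, stood at 7.31 against 149 CPM, and the gene BC035044 at 1.33 against 86.3 CPM.

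Igkc, the kappa light chain constant region, had the lowest log2 ratio with 5 CPM added, at 57.2 CPM in the gate against 2559 CPM, and this value rested on 12 of the other cells in which immunoglobulin made up over 10% of the UMIs. No gated cell was of this kind. Without those 12 cells Igkc stood at 42.0 CPM in the others and the ratio became 1.36. Ighm, the heavy chain of IgM, stood at 10.1 against 568 CPM with the 12 cells and against 90.2 CPM without them, a ratio of 0.112. Igkc UMIs were in 30.3% of thinned gated cells and in 26.9% of the others, and cells with one were nearly all of suffix 2 in both groups, at 1 gated cell of suffix 1 and 229 of suffix 2, and 48 and 1402 of the other cells before thinning.

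Stem cell transcription factors were higher in part. Of 18 tested, 5 were past 2-fold higher and none lower, against 2.43% higher and 3.54% lower of all tested genes, with a median log2 ratio of 0.43 against -0.02 over all genes. Mllt3, a reader of acylated histones that maintains human stem cells, stood at 258 against 56.2 CPM, 4.59-fold higher (4.34 to 4.85), and was in 76.2% of gated cells against 30.1% of the others. Hoxb5, a homeobox gene used as a reporter of long-term stem cells, stood at 34.2 against 6.52 CPM, 5.24-fold higher. Gata2 was 2.37-fold higher, and Mecom was among the 5 too. Lmo2 (ratio 1.35) and Meis1 (1.35), the most abundant of the others with Hlf, stayed within 2-fold. Against the CD150-low CD48-low cells the summed ratio of the list was 1.02 (0.970 to 1.06) in suffix 1 and 1.20 (1.12 to 1.28) in suffix 2. Mllt3 was higher against them, with ratios of 2.23 and 2.76 in suffix 1 and over both libraries, and Hlf was lower, at 0.600 and 0.566.

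Surface and reporter genes of stem cells followed the same order. Of 19 tested, 8 were past 2-fold higher and 3 lower, against 2.43% and 3.54% of all tested genes, with a median log2 ratio of 0.85. Beside Slamf1, Procr and Vwf, the genes past 2-fold higher included Itgb3 (4.52-fold), Fgd5 (3.18-fold), Ctnnal1 (3.28-fold) and Esam (2.26-fold). The 3 lower were Cd48, Flt3 and Cd34. Cd34 stood at 88.6 against 457 CPM, a ratio of 0.194, and of 0.380 in suffix 1 and 0.0983 in suffix 2. Kit and Ly6a, whose proteins were used to sort the LSK fraction, had ratios of 1.01 and 1.61.

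Genes of cell division were lower without exception in their lists. All 18 genes of G2 and mitosis were past 2-fold lower, 15 of them in both libraries, against 3.54% and 1.88% of all tested genes, with a median log2 ratio of -2.41, and their summed level was 173 CPM in the gate and 1435 CPM in the others, a ratio of 0.121 (0.114 to 0.127). Mki67, the proliferation antigen Ki-67, stood at 13.2 against 165 CPM, Top2a, topoisomerase II alpha, at 26.1 against 278 CPM, and Birc5, survivin, at 7.71 against 109 CPM. All 20 genes of DNA replication were past 2-fold lower too, 13 of them in both libraries, against the same 3.54% and 1.88%, with a summed level of 564 against 2032 CPM, a ratio of 0.277 (0.269 to 0.286). Rrm2, a subunit of ribonucleotide reductase, stood at 6.12 against 59.6 CPM, Uhrf1, which maintains DNA methylation, at 9.18 against 67.1 CPM, Tyms, thymidylate synthase, at 24.7 against 129 CPM, and Mcm5, of the replicative helicase, at 23.3 against 124 CPM. The size of the difference moved with the cells and bounds chosen. With over 2500 genes and under 5% mitochondrial UMIs required and the bounds set anew, which left 57 gated and 310 other cells, 23 of the 57 from the gate described here, the summed ratio was 0.815 for G2 and mitosis and 0.665 for replication. With the same requirement and the bounds kept, the 23 gated cells gave 0.587 and 0.643, and with tags as centred log ratios the ratios were 0.356 and 0.396.

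The libraries differed in how low these genes were. The ratio of the summed G2 and mitosis genes was 0.282 in suffix 1 and 0.0416 in suffix 2, and that of the DNA replication genes 0.437 and 0.206. Among thinned gated cells, 10 of 534 (1.87%) had 5 or more UMIs of the G2 and mitosis genes, 9 of 160 in suffix 1 and 1 of 374 in suffix 2, against 23.4% of the other cells and 44.5% of the CD150-low CD48-high cells. The level in suffix 1 thus came from few cells, and over the gate 5 cells held 73.7% of the Mki67 UMIs. The looser tag bounds of suffix 1 moved with this difference, and their part in it was not tested.

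Promoters of 2 of the genes of G2 and mitosis are shown because the genes of this list were lower together. Ccnb2 encodes cyclin B2, which drives entry into mitosis, and stood at 9.58 CPM in the gate and 66.9 CPM in the others. Ube2c encodes a ubiquitin-conjugating enzyme of mitotic exit, and stood at 9.18 against 115 CPM. The windows are the 250 bases that end at the transcript start of the same RefSeq table, chr9:70421555-70421804 on the minus strand for Ccnb2 and chr2:164769679-164769928 on the plus strand for Ube2c, printed 5′ to 3′. Capitals mark CCAAT, the letters bound by NF-Y, and TTTGAA, a core of the cell cycle homology region (CHR), searched on both strands, so that ATTGG and TTCAAA are the same letters on the other strand. Ccnb2 held 3 CCAAT matches and 1 CHR match and Ube2c held 6, of which 2 overlapped, and 1.
Ccnb2: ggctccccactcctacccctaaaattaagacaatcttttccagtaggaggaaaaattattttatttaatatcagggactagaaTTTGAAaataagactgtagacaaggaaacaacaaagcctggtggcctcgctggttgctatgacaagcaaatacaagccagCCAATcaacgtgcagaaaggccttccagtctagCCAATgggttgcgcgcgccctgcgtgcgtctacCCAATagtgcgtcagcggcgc
Ube2c: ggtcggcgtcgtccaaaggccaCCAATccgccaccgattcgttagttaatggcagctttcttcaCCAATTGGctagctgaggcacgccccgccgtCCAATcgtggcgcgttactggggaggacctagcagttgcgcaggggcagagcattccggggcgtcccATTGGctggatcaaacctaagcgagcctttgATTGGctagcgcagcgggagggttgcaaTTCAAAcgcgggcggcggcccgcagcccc

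Of the 16 genes of G2 and mitosis with a promoter entry, 7 (43.8%) held both motifs in this window, against 7.34% of all 27025 genes. CCAAT alone was in 14 of the 16, against 37.5% of all genes. In the DNA replication list 2 of 17 genes held both motifs and 13 held CCAAT. No test was made, and a gene without a match lacks these letters in this window only.

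Among cell cycle inhibitors and G1 regulators the median log2 ratio was -0.19, and of 18 genes 1 was past 2-fold higher and 2 were lower, 1 of the 2 in both libraries, against 2.43% higher and 3.54% lower over all tested genes. Cdkn1c, which encodes the CDK inhibitor p57, stood at 88.6 against 19.4 CPM, 4.57-fold higher (4.15 to 5.03), and was in 45.9% of gated cells and 1.76% of CD150-low CD48-high cells. Cdk6, the G1 kinase that times exit from quiescence, stood at 89.2 against 387 CPM, a ratio of 0.231, and Rbl1, the pocket protein p107, at 11.3 against 31.2 CPM. Rbl1 was under 2-fold in suffix 1, where its ratio was 0.570, and both were under 2-fold with the stricter cell filter and new bounds, at 0.507 for Cdk6 and 0.700 for Rbl1. Cdk4 (ratio 0.550), Ccnd2 (1.44) and Ccnd3 (1.31) were within 2-fold.

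Cdkn1c is also an imprinted gene, and the measured imprinted genes were higher as a group. Of 12 listed, 7 passed the filter on low values and 5 of these were past 2-fold higher, 4 of them in both libraries, against 2.43% and 1.05% of all tested genes, with none lower, a median log2 ratio of 1.48 and a summed ratio of 3.42 (2.95 in suffix 1 and 3.48 in suffix 2). Meg3, a maternally expressed long noncoding RNA, stood at 105 CPM in the gate, 4.58-fold higher (4.20 to 5.00), but it was in only 20.6% of thinned gated cells and 24 cells held most of its UMIs. Ndn, necdin, stood at 78.1 against 20.3 CPM and Grb10, a growth factor receptor adaptor, at 50.4 against 14.9 CPM. Dlk1 was 5.53-fold higher, with a ratio of 1.62 in suffix 1. Impact (1.62) and Igf2r (1.20) were within 2-fold. Against the CD150-low CD48-low cells the summed ratio was smaller, at 1.92 (1.58 to 2.35) in suffix 1 and 1.87 (1.49 to 2.39) in suffix 2. With the libraries pooled, Meg3 and Grb10 were under 2-fold against those cells, and Cdkn1c and Ndn stayed past it.

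**Figure D4:**
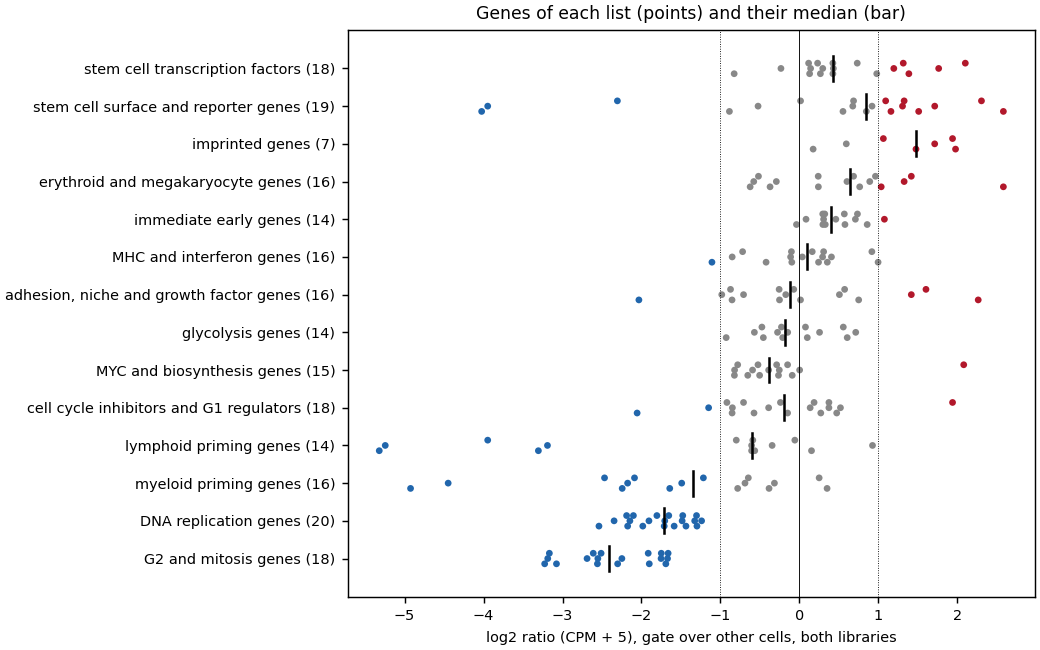
Log2 ratio of CPM with 5 added, gate over other cells, for each tested gene (points) of 14 lists with their median (bar) and the number tested in brackets; red and blue points are past 2-fold. All genes of DNA replication and of G2 and mitosis lie past 2-fold lower, and the imprinted genes have the highest median, at 1.48.

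Lineage genes were lower in part. Of 16 myeloid genes, 9 were past 2-fold lower, against 3.54% of all tested genes, and none higher, with a median log2 ratio of -1.35, among them Elane, neutrophil elastase, with 0.532 CPM in the gate, and Clec12a, with 0.931 against 23.1 CPM. The summed myeloid ratio was 1.03 against CD150-low CD48-low cells (0.787 in suffix 1 and 1.09 in suffix 2) and 1.07 against CD150-high CD48-high cells, where it was under 1 within each library (0.942 and 0.750). Against all other cells it was 0.798 (0.781 to 0.815). Prtn3, proteinase 3, made up most of the sum in the gate, at 847 of 1257 CPM, and stood at 663 of 1576 CPM in the others. Prtn3 UMIs were in 97.0% of gated cells and 90.2% of CD150-low CD48-high cells, and its ratio was 0.876 in suffix 1 and 1.36 in suffix 2. Lyz2, lysozyme, stood at 278 against 233 CPM. Spi1, which encodes PU.1, stood at 81.8 against 144 CPM, a ratio of 0.567, and of 0.751 in suffix 1 and 0.489 in suffix 2. Wwtr1, which encodes TAZ, had a log2 ratio of 1.49, and of 0.78 in suffix 1 and 1.52 in suffix 2.

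Of 14 lymphoid genes, 5 were past 2-fold lower (among them Dntt, Ighm, Flt3 and Satb1), against 3.54% of all tested genes, and none higher, the median log2 ratio was -0.60, and the summed ratio was 0.249, or 0.367 without the 12 immunoglobulin-rich cells. Satb1, a chromatin organizer of lymphoid cells, stood at 4.92 against 93.1 CPM. Bcl11a (ratio 1.12) and Notch1 (0.611) were within 2-fold, and Gata3 stood at 56.8 against 27.5 CPM, a plain ratio of 2.07 that fell within 2-fold on the scale with 5 CPM added. Of 16 erythroid and megakaryocyte genes, 4 were past 2-fold higher and none lower, with a median log2 ratio of 0.65, and 2 of the 4 were past it in both libraries, against 2.43% and 1.05% of all tested genes. Among them were Vwf, Selp, P-selectin, at 111 against 38.3 CPM, and Rab27b, a GTPase of platelet granule release, at 31.7 against 12.9 CPM. With 5 CPM added, Selp was under 2-fold in suffix 1 (plain ratio 1.54) and Rab27b in suffix 2 (plain ratio 2.05). Car2 (1.52) and Zfpm1 (1.92) were within 2-fold.

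Of 16 adhesion, niche and growth factor genes, 3 were past 2-fold higher, 2 of them in both libraries, and 1 was lower, also in both, against 2.43% higher (1.05% in both) and 3.54% lower (1.88% in both) of all tested genes. Beside Selp, Jam2 was 7.76-fold and Jam3 4.21-fold higher, both junctional adhesion molecules, and Itgal, the integrin chain CD11a, was 27.3-fold lower, while Angpt1 (1.50) was within 2-fold. Of 15 MYC and biosynthesis genes only Mycn was past 2-fold, 1 gene against 2.43% of all tested genes past 2-fold higher and 3.54% lower, at 233 against 51.2 CPM, 4.55-fold higher, whereas the ratio of Myc was 0.552 and 13 of 15 genes had a log2 ratio under 0. Of the glycolysis genes none of 14 was past 2-fold, with Pkm at a ratio of 0.902, Ldha at 1.06 and Gapdh at 0.726. Of 14 immediate early genes, Klf2 alone was past 2-fold higher (2.21-fold), against 2.43% of all tested genes, and it was not past 2-fold in both libraries, with ratios of 1.28 in suffix 1 and 2.60 in suffix 2. Of the 16 MHC and interferon genes, H2-Ab1 alone was past 2-fold lower, a share near the 3.54% of all tested genes, at 96.2 against 213 CPM, with ratios of 0.852 in suffix 1 and 0.343 in suffix 2.

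The medians of the log2 ratio were -0.12 for the 16 adhesion genes, -0.18 for glycolysis, 0.40 for immediate early genes, 0.10 for the MHC and interferon genes and -0.39 for the MYC and biosynthesis genes. None of 82 cytosolic ribosomal protein genes and none of 13 mitochondrially encoded genes was past 2-fold.

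Markers of other cell types were scarce in the gate and outside it. Of 22 such markers, 20 stood under 10 CPM there and 4 had no UMI, among them Cd3e, Cd3d and Mcpt8. Most were as scarce in the other cells, where Igkc, Jchain, Nkg7, Cpa3 and Emcn were the only ones above 10 CPM and Cd3e had no UMI either. The 2 above 10 CPM were Igkc and Emcn, endomucin, which is also on stem cells, at 43.8 against 33.5 CPM. The hemoglobin genes Hbb-bs and Hba-a1 stood at 5.05 and 0.532 CPM. Of the 12 markers that passed the filter on low values, 4 were past 2-fold lower in the gate (Igkc, Nkg7, Jchain and Cpa3) and none higher, against 3.54% of all tested genes past 2-fold lower. Kdr, the VEGF receptor of endothelium, stood at 8.64 against 1.94 CPM, under 2-fold with 5 CPM added, with UMIs in 57 gated cells, and Lepr, the leptin receptor of marrow stroma, had 13 UMIs in the gate and 2 in the others. Jchain, the joining chain of secreted IgM and IgA, stood at 1.20 against 46.4 CPM, and its ratio became 1.74 without the 12 immunoglobulin-rich cells.

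Transcript levels were then followed along each tag. Bands were cut at the 25th, 50th and 75th percentiles of each tag within a suffix. Among CD48-low cells of suffix 1, Slamf1 stood at 1.23, 0, 1.95 and 16.9 CPM from the lowest to the highest CD150 band, which is the gate, and in suffix 2 at 0, 0, 14.1 and 64.2 CPM. The exact upper limits of the bands at 0 were 5.35 CPM in suffix 1, and 11.1 and 13.0 CPM in suffix 2. Vwf stood at 1.23, 0, 8.78 and 28.9 CPM in suffix 1 and at 6.04, 7.07, 30.5 and 131 CPM in suffix 2. The intervals of both in the gate lay above those of every lower CD150 band of the same library. Cd34 went the other way, from 567 CPM in the lowest band to 202 CPM in the gate of suffix 1 and from 235 to 40.3 CPM in suffix 2.

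Hlf was not highest in the gate. In suffix 1 it stood at 721, 652, 601 and 432 CPM over the CD150 bands of CD48-low cells, lowest in the gate, and in suffix 2 at 395, 318, 435 and 322 CPM with no such order. Against the CD150-low CD48-low cells, the ratio of the gate was 0.600 (0.541 to 0.666) in suffix 1 and 0.813 (0.681 to 0.979) in suffix 2. Procr stood at 93.5 CPM in the lowest band and 115 CPM in the gate of suffix 1, where the intervals overlap, and at 154 and 246 CPM in suffix 2. The lowest CD150 band held 69 cells of suffix 1 and 29 of suffix 2, and the next 56 and 25.

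**Figure D5:**
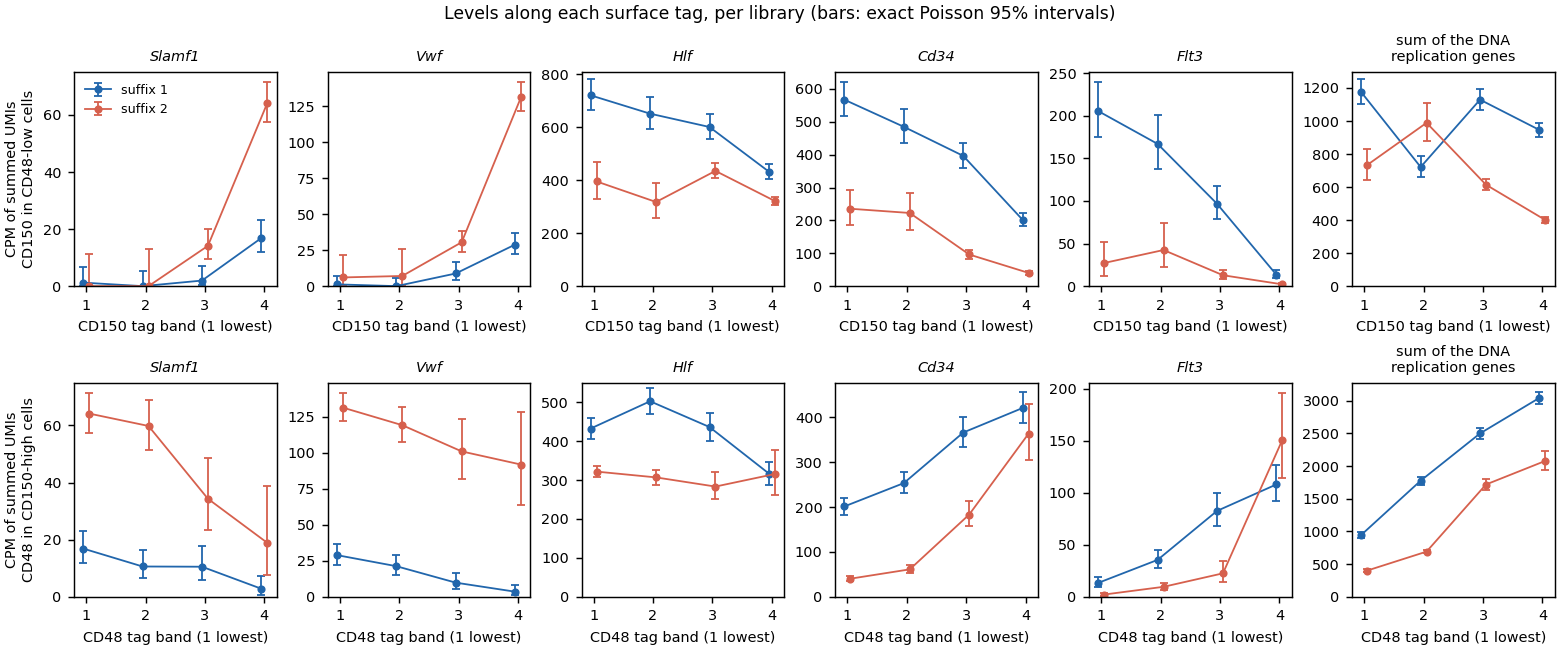
CPM of summed UMIs (y axes) over 4 bands of CD150 in CD48-low cells (top) and of CD48 in CD150-high cells (bottom), from the lowest band (1) up, for suffix 1 and suffix 2; bars are exact Poisson 95% intervals. The gate is band 4 on top and band 1 below; Slamf1 and Vwf are highest there in both libraries, though in suffix 2 Slamf1 is within counting error of the next CD48 band (59.8 CPM), and Hlf of suffix 1 is lowest in the gate on top.

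Along CD48, with CD150 high throughout, the DNA replication genes, Flt3 and Cdk6 were higher in the top CD48 band than in the gate of each library. In suffix 1 the summed DNA replication genes stood at 946 CPM in the gate and at 1775, 2499 and 3043 CPM in the bands above it, and in suffix 2 at 400, 691, 1717 and 2079 CPM, the last from 10 cells. Flt3 stood at 13.3 CPM in the gate and 108 CPM in the highest CD48 band of suffix 1, and at 2.09 and 151 CPM in suffix 2. Cdk6 stood at 108 CPM in the gate and 448 CPM in the highest band of suffix 1, and at 81.3 and 315 CPM in suffix 2. Against this CD150-high CD48-high corner, Vwf was 8.28-fold higher in the gate of suffix 1 (3.37 to 26.3) and 1.43-fold higher in that of suffix 2 (1.01 to 2.08).

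Next to the bounds some genes stood alike on both sides and others did not. In the 5 percentiles just inside the CD150 bound, 87 cells had 40 to 68 tags in suffix 1 or 407 to 557 in suffix 2, and Procr stood at 193 CPM, Sult1a1 at 611 CPM and Slamf1 at 33.9 CPM. In the 5 percentiles just outside it, 72 cells had Procr at 201 CPM, Sult1a1 at 592 CPM and Slamf1 at 19.2 CPM. The DNA replication genes stood at 496 CPM inside and 836 CPM outside, Flt3 at 5.65 and 24.0 CPM and Cdk6 at 92.3 and 158 CPM, and the intervals of these 3 did not overlap, whereas those of the G2 and mitosis genes did, at 65.0 and 82.7 CPM. At the CD48 bound, the 96 cells just inside had Procr at 179 CPM and G2 and mitosis genes at 361 CPM, and the 65 cells just outside had 195 and 810 CPM, with intervals that overlap for Procr and not for the G2 and mitosis genes. Cdk6 stood at 113 and 135 CPM there, with intervals that overlap. These strips pool the libraries, at the CD48 bound 26 cells of suffix 1 and 70 of suffix 2 inside, and 21 and 44 outside. The intervals cover counting error only, and 10 of 534 thinned gated cells had 5 or more UMIs of the G2 and mitosis genes. The part of such cells and of the library mix in the G2 and mitosis difference was not tested.

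Gated cells were not uniform. Of 534 thinned cells, 199 had a Cd34 UMI and 22 a Flt3 UMI, and 327 had neither. In suffix 1 the 106 cells with a Cd34 UMI had Vwf at 16.5 CPM and Sult1a1 at 56.6 CPM, and the 54 without had 55.6 and 118 CPM. In suffix 2 the 93 cells with and the 281 without a Cd34 UMI had Vwf at 129 and 135 CPM, a difference within counting error. Sult1a1 stood at 856 and 962 CPM there, with intervals that overlap. Mki67 stood at 15.3 CPM with and 60.2 CPM without a Cd34 UMI in suffix 1. In suffix 2 it had 2 UMIs and 1 UMI. The genes with the most variable thinned counts among gated cells, by the ratio of variance to mean (Fano factor) in both libraries, were Malat1, Ifit1, Cd74, Gm42418, Myl10, Hbb-bt, Nfkbia, Jun, Apoe and Iigp1. Ifit1, an interferon-induced antiviral protein, had Fano factors of 15.3 in suffix 1 and 9.50 in suffix 2 and UMIs in 150 of 555 gated cells. Cd74, the invariant chain of MHC class II, had 6.93 and 10.5. Hbb-bt had 4.28 and 11.5 with UMIs in 11.8% of cells, and 7 cells held most of them, with the limit that its reads can be shared with the near-identical Hbb-bs. The median over 7599 genes was 1.02 in suffix 1 and 1.01 in suffix 2, the value expected of counting alone being 1, and 61 genes were over 2 in both. Among the label markers the Fano factors in suffix 1 and suffix 2 were 1.98 and 1.76 for Hlf, 1.51 and 1.05 for Slamf1, 1.40 and 1.24 for Procr and 0.969 and 1.18 for Mecom. They were 2.68 and 1.91 for Mllt3 and 1.83 and 1.26 for Vwf.

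The CLCA3A1 tag, which took no part in the gate, was higher in gated cells than in all the others together. Its median was 25 tags in the gate and 8 in the others of suffix 1, and 214 and 19 tags in suffix 2. Tags that mapped to no antibody had a median of 31 in the gate and 43 in the others of suffix 1, and 40 and 22 in suffix 2. The CD150-high CD48-high cells had a CLCA3A1 median of 40 tags in suffix 1 and 232 in suffix 2, the last from 10 cells. The gate thus did not stand above them, and their unassigned tags had medians of 103 and 80. In suffix 2 both kinds of tag were higher in the gate than in the others. The part of the unassigned tags in the CLCA3A1 difference was not tested. Clca3a1 transcripts had a log2 ratio of 2.09 over both libraries, 0.85 in suffix 1 and 2.05 in suffix 2.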

How the data were processed

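LSK cells of old and young mice were counted in 1 library each. The authors counted UMIs per gene and cell with Cell Ranger 3.1.0 on build mm10 (GRCm38), per the labels, and normalized and combined the libraries with its aggregation step, so depth before it is unknown; the deposited matrix holds these counts for 31053 genes in 4688 cells. Tag UMIs, counted by the authors with CITE-seq-Count, were deposited as log10 values, with 0 tags as minus infinity, which was ranked lowest. Cells under 10% mitochondrial UMIs and over 1500 genes were kept (4068), and 82 of these without tags were left out. Percentiles were order statistics.

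UMIs were summed over cells and compared as CPM with Python 3.11.15, NumPy 2.4.6, SciPy 1.17.1 and pandas 2.3.3. Intervals are exact (Poisson for levels, conditional binomial for ratios, Clopper-Pearson for shares), at 95%, and cover counting error only. Those for ratios were tried on simulated Poisson counts, which have no spread between cells beyond counting, and the others were not tried. A gene was called past 2-fold on CPM with 5 added. Thinning to 8000 UMIs used seed 1. Doublets were called with scrublet in scanpy 1.11.5 at an expected rate of 0.06 and kept: 1 of 555 gated cells was called, and in suffix 1 0.267% of cells, so the caller found few. No column of values was left out.

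Members, gene lists and alternatives were chosen with earlier results of these data known. Named were the label markers, of the genes past 2-fold the same way in both suffixes, the 12 highest and the 12 lowest log2 ratios, in each list up to 4 members with the largest difference and up to 3 abundant ones within 2-fold, and the 10 most variable genes. Cxcl9, Cldn5, Itgb3, Fgd5, Ctnnal1, Esam, Cd34, Dlk1, Myc, Wwtr1, Clca3a1, Ccnb2 and Hba-a1 fall outside this rule and were chosen after their values were seen. Results of some genes are not reported here.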

Additional observations from a re-analysis of the deposited data

How the results depend on the processing

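No paired analysis was possible because the labelled groups were not compared and share fewer than 2 replicate numbers; gated and other cells of the same library are compared in the ratios per suffix. Ratios of summed levels, gate over other cells, are given below; with the settings of the report they were 1.81 for the 4 label markers, 0.121 for the G2 and mitosis genes, 0.277 for DNA replication, 0.249 for lymphoid and 0.798 for myeloid genes. Where a value moved, the cause was not tested.

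With 70th and 30th percentiles as bounds, the ratio was 0.158 for G2 and mitosis and 0.303 for replication, and with 90th and 10th it was 0.106 for G2 and mitosis, 0.262 for lymphoid and 0.729 for myeloid genes. With percentiles over both suffixes together, which shared 416 of 555 cells, the values were 1.89 for the markers, 0.0622 for G2 and mitosis, 0.239 for replication and 0.865 for myeloid genes. With centred log ratios of the tags, 297 genes were lower, and the values were 1.88, 0.356, 0.396, 0.261 and 0.747 for markers, G2 and mitosis, replication, lymphoid and myeloid genes. With over 2500 genes and under 5% mitochondrial UMIs, and bounds set anew, which left 57 gated cells (23 shared with the gate), 547 genes were higher and 221 lower, the ratio of median UMIs was 0.572, the same 5 values were 2.76, 0.815, 0.665, 0.0681 and 0.433, and Cxcl10 turned to 0.840. With these requirements and the bounds kept, which left 23 gated cells, 899 genes were higher, the ratio of median UMIs was 0.589, the 5 values were 2.96, 0.587, 0.643, 0.0825 and 0.377, and Cxcl10 turned to 0.231. With no cell filter, G2 and mitosis gave 0.0916 and lymphoid genes 0.260. The mean of single-cell CPM gave 1.55, 0.144, 0.318, 0.319 and 0.879, and the mean of both suffixes 1.70 for the markers, 0.172 for G2 and mitosis, 0.327 for replication and 0.766 for myeloid genes.

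In suffix 1 alone 174 genes were higher and 283 lower, the ratio of median UMIs was 0.820, and the ratios were 1.34 for the markers, 0.282 for G2 and mitosis, 0.437 for replication and 0.736 for myeloid genes. Suffix 2 alone gave 2.19, 0.0416 and 0.206 for markers, G2 and mitosis, and replication. Against CD150-low CD48-high cells only, 892 genes were higher and 719 lower, the ratio of median UMIs was 0.585, and the 5 values were 5.59, 0.0810, 0.205, 0.173 and 0.544. Against CD150-low CD48-low cells only, 235 genes were lower, the ratio of median UMIs was 1.17, the 5 values were 0.916, 0.370, 0.538, 0.503 and 1.03, Igkc turned to 2.26 and Jchain to 1.37. Of these 98 cells 69 were of suffix 1, against 172 of 555 in the gate. Within the libraries G2 and mitosis gave 0.713 (0.641 to 0.795) in suffix 1 and 0.765 (0.504 to 1.21) in suffix 2. Replication gave 0.805 and 0.546, and lymphoid genes 0.451 and 0.763. Against CD150-high CD48-high cells only, the ratio of median UMIs was 0.408, G2 and mitosis gave 0.109, replication 0.198, lymphoid genes 0.479 and myeloid genes 1.07, and Igkc turned to 5.43, Jchain to 2.16 and H2-Ab1 to 1.02. Of these 56 cells 46 were of suffix 1, in which few cells had an Igkc UMI. Within the libraries G2 and mitosis gave 0.241 in suffix 1 and 0.102 in suffix 2, and replication 0.311 and 0.193. With the libraries pooled, the marker ratio thus turned against the first of these corners and the myeloid ratio against both. Within the libraries the marker ratio against the first corner was 0.764 in suffix 1 and 1.17 in suffix 2. The myeloid ratio was 0.787 and 1.09 there, and 0.942 and 0.750 against CD150-high CD48-high cells. These comparisons, the bounds kept and the next were chosen after seeing the data. Without the immunoglobulin-rich cells, lymphoid genes gave 0.367, Igkc 1.36 and Jchain 1.74. With 1 CPM added 783 genes were higher and 758 lower, and with 20 CPM 91 and 180. Of 57 named genes past 2-fold, between 41 (against CD150-low CD48-low cells) and 57 remained so in 15 alternatives. This was not counted for the mean of single-cell CPM or for 1 or 20 CPM added. The mice cannot be told apart, so the spread between animals limits every value and is unknown.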
